A study of Mus musculus with 48 samples.

Results

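The transcripts described here are those of 9 genes of the transforming growth factor beta (TGF-beta) and activin system. They comprise the ligand genes Tgfb1, Tgfb2, Tgfb3 and Inhba, the latent-TGF-beta-binding-protein family gene Ltbp2, the receptor genes Tgfbr1 and Tgfbr2, the feedback inhibitor Smad7 and the matrix target Tgfbi. They were taken by symbol from the 36854 genes of the count table, and all 9 were found and tested in every comparison. RNA-seq was run on 48 mouse soft-tissue sarcomas of the 129/SvJae background, 1 library per tumour. The 32 primary tumours arose in p53FL/FL mice aged 6 to 10 weeks, after Cre-expressing adenovirus and then 300 µg of the carcinogen MCA (in sesame oil, at 6 µg/µl) had been injected into the gastrocnemius muscle. The 16 allografts were grown in the same muscle of syngeneic mice from 50000 cells of the single line 402230 in DMEM and matrigel, so they descend from 1 line while each primary tumour arose on its own. When a tumour was close to 150 mm3, the mouse was given 200 µg of the murine anti-PD-1 antibody muDX400 or of an isotype control into the peritoneum, followed at once by 0 or 20 Gy to the left hind limb, and the tumour was taken 3 days later. Each of the 4 treatment arms holds 4 allografts and 8 primary tumours, which makes 8 groups. No group is free of antibody injection, and no group keeps an intact p53 locus as a reference.

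TGF-beta ligands are secreted in a latent form that is stored on matrix or on cell surfaces and must be released before it binds. The free ligand brings the type II receptor TGFBR2 and the type I receptor TGFBR1 together, and the type I receptor phosphorylates SMAD2 and SMAD3, which act in the nucleus with SMAD4. Activin A, a dimer of the protein encoded by Inhba, uses its own receptors and the same SMAD proteins. In tumours the pathway is known for driving matrix deposition and for restraining T cells, and it is induced or activated by ionising radiation in several tissues.

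Library totals ran from 31.8 to 54.0 M counts (median 41.2 M), and the lowest count of any member in any tumour was 171, for Tgfb2. The 8 mesenchymal marker genes summed to 1912 to 8979 CPM (counts relative to library size, after TMM scaling for library composition) in single tumours, while the 4 epithelial markers Krt5, Krt14, Epcam and Dsp summed to at most 20.0 CPM. The 8 skeletal muscle markers varied most: they summed to 14.5 CPM in the lowest tumour and 70979 CPM in the highest, and exceeded 10000 CPM in 1 allograft of each arm, in 2 primary tumours given 20 Gy with isotype and in 3 given 20 Gy with anti-PD-1. The first digit of the animal number in the titles was 5 in 11 of 16 allografts and in 2 of 32 primary tumours. The labels do not say what that digit means, and between untreated kinds of tumour it cannot be told apart from the kind. In bulk tumour RNA, fewer cells of a type and less RNA per cell cannot be told apart.

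To set genes side by side, CPM was divided by the length of each gene's merged exons. On this per-length level the matrix target Tgfbi was highest, with a median over 48 tumours of 267 CPM per kb and a highest value of 439. Tgfbr2 followed with 50.2 (25.9 to 96.8), and the ranges of Tgfbi and Tgfbr2 did not overlap. The next 4 lay close together: the median per-length level was 29.9 CPM per kb for Tgfb3, 25.8 for Tgfb1, 25.6 for Ltbp2 and 20.8 for Inhba. Their ranges overlapped widely, since Tgfb3 spanned 11.3 to 153, Tgfb1 16.2 to 43.7 and Ltbp2 1.49 to 169 CPM per kb, and Inhba reached down to 7.37. Tgfbr1 (14.4), Smad7 (8.19) and Tgfb2 (1.88) had the lowest median levels per length, and each range overlapped that of its neighbour in the order. By the ratio of its highest to its lowest tumour, Tgfb1 was the most even of the 9 transcripts and Ltbp2 the most uneven.

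**Figure D1:**
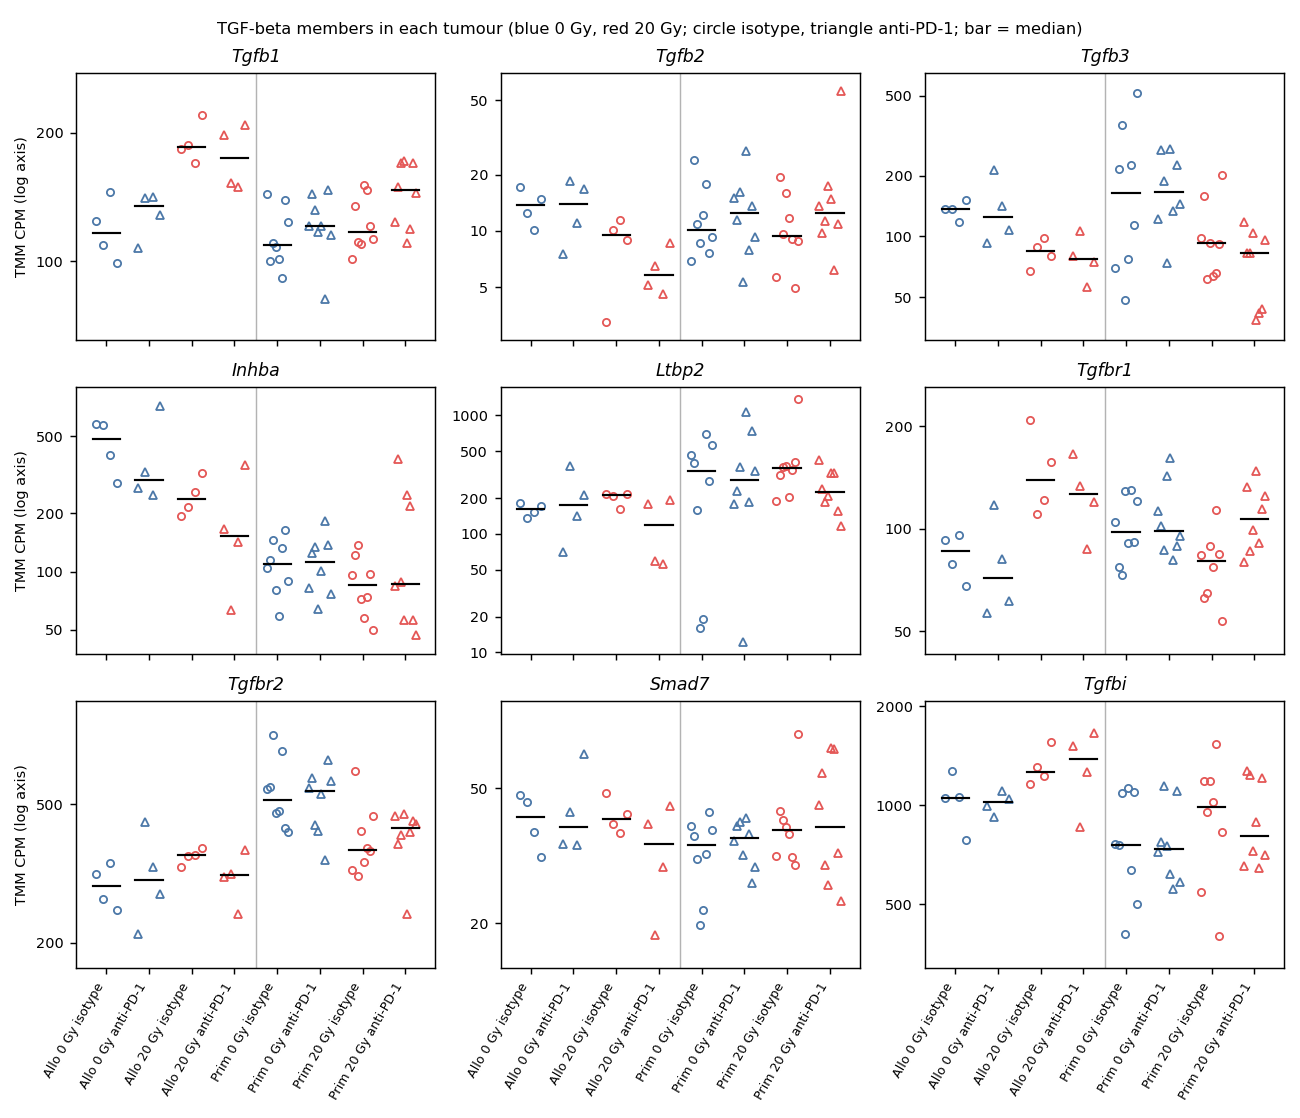
Each panel shows 1 gene, with TMM-scaled CPM on a log axis for every tumour in the 8 groups; bars are group medians, blue is 0 Gy, red is 20 Gy, circles are isotype and triangles anti-PD-1. All 8 irradiated allografts lie above all 8 unirradiated ones for Tgfb1, and all 8 primary tumours given 0 Gy and isotype lie below the 4 matching allografts for Inhba.

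The first comparison was 20 Gy against 0 Gy within the allografts, which asks how these tumours differed 3 days after irradiation. Averaged over both antibody arms, transcripts of 2 members were higher after 20 Gy, Tgfb1 by 0.59 on the log2 scale and the type I receptor gene Tgfbr1 by 0.78, which is 1.71-fold. Transcripts of 2 other ligand genes were lower, Tgfb2 by 1.83-fold and Tgfb3 by 1.65-fold. The calls were made with edgeR's quasi-likelihood test at a Benjamini-Hochberg adjusted p under 0.05 over all 17746 genes tested, of which 13.7% were called. The median log2 fold change of the 9 members was -0.15, against -0.0090 over all genes tested. Leukocyte genes moved in the same comparison: 6 of 6 leukocyte markers were higher after 20 Gy, and their summed level ranged from 799 to 1981 CPM in unirradiated and from 1915 to 3302 CPM in irradiated allografts. Macrophage markers were higher for 6 of 9 genes. The part of these cells in the member results was not tested.

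Tgfb1 (chr7:25687002-25705077, plus strand, GRCm38) encodes the TGF-beta isoform made by most leukocytes as well as by stroma. In unirradiated allografts its level was 98.7, 109.3 and 145.3 CPM with isotype, the fourth tumour lying between the last 2 values, and 107.3, 128.3, 140.7 and 141.4 CPM with anti-PD-1. Irradiated allografts held 170, 183, 187 and 220.5 CPM under isotype and 149, 152, 197 and 208 CPM under anti-PD-1. All 8 irradiated allografts were thus above all 8 unirradiated ones. The averaged log2 fold change was 0.59 (SE 0.12, adjusted p = 0.00303, edgeR). Within the isotype arm alone 1 of 9 members was called, against 5.14% of all genes, and this was Tgfb1 by edgeR (log2 fold change 0.70, SE 0.16, adjusted p = 0.0236). That isotype call was lost in 4 of 16 fits that each left out 1 tumour, namely without 0 Gy isotype tumour 1, 2 or 4 or 20 Gy isotype tumour 4 (adjusted p up to 0.0821). In this arm the first identifier digit went with dose, being 5 in 4 of 4 unirradiated and 1 of 4 irradiated allografts, and Xist exceeded 10 CPM in 1 and 3 of them. With the digit as a covariate the isotype fold change was 0.61 (adjusted p = 0.159, edgeR) and with Xist 0.65 (adjusted p = 0.0712), so the call ended while the difference stayed about as large. The 5-numbered tumours hold 1 irradiated isotype allograft, too few for a test of this arm. In the anti-PD-1 arm 3.96% of genes were called and 0 members by edgeR, with 5 members at an unadjusted p under 0.05 and 3 called by DESeq2. There Tgfb1 had a log2 difference of 0.48 (SE 0.16, adjusted p = 0.114) with 4 of 4 irradiated tumours above all 4 unirradiated ones. Among allografts whose animal number began with 5, Tgfb1 stood at 98.7 to 145.3 CPM in 7 unirradiated and 149 to 208 CPM in 4 irradiated tumours, so the ranges stayed apart, though the averaged fold change no longer passed in those tumours alone (adjusted p = 0.179). Across the 16 allografts, log2 Tgfb1 had r = 0.74 with log2 summed leukocyte markers and also r = 0.74 with log2 summed endothelial markers, of which 2 of 7 were higher after 20 Gy, over libraries that share the same dose groups.

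Tgfbr1 (chr4:47353222-47414931, plus strand) encodes the kinase that passes the TGF-beta signal to SMAD proteins. The 4 unirradiated isotype allografts held 67.6, 78.9, 92.6 and 95.7 CPM, and the 4 anti-PD-1 ones 56.5, 61.4, 81.6 and 117.4 CPM. Under 20 Gy the isotype allografts held 110.2, 157 and 208 CPM, with the fourth between the first 2 values, and the anti-PD-1 allografts 87.0, 119.4, 133.2 and 166 CPM. Of the 8 irradiated allografts, 6 were above all unirradiated ones, and the 3 highest unirradiated ones (92.6, 95.7 and 117.4 CPM) were above the lowest irradiated one. The averaged log2 fold change was 0.78 (SE 0.18, adjusted p = 0.0103, edgeR). This call was kept in 16 of 16 fits that left out 1 tumour each, and ended with Xist above 10 CPM, a mark of female tissue, as a covariate (0.51, adjusted p = 0.0868, edgeR) and in the tumours whose number began with 5 (0.62, adjusted p = 0.162). In the latter, 7 unirradiated allografts held 56.5 to 95.7 CPM and 4 irradiated ones 87.0 to 133.2 CPM. Xist went with dose in both arms, exceeding 10 CPM in 1 of 4 unirradiated and 3 of 4 irradiated allografts of each.

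Tgfb3 (chr12:86056745-86079041, minus strand) encodes the isoform best known from palate and wound repair, and its locus overlaps 3 other annotated genes, Ttll5 among them. Without radiation it stood at 117.4, 136.8, 137.6 and 151 CPM in the isotype arm and at 92.9, 107.2, 142.1 and 213.5 CPM in the anti-PD-1 arm. With 20 Gy it stood at 67.4, 80.2, 88.5 and 97.9 CPM in the isotype arm and at 56.3, 74.8, 79.9 and 106.5 CPM in the anti-PD-1 arm. Of the irradiated allografts 6 of 8 were below all unirradiated ones. The averaged log2 fold change was -0.73 (SE 0.17, adjusted p = 0.0106, edgeR). It passed in 16 of 16 fits without 1 tumour and ended when all 48 tumours shared 1 fit, where the fold change was no smaller (-0.74, adjusted p = 0.211, edgeR). In the fewer tumours whose number began with 5 it was -0.53 (adjusted p = 0.304).

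Tgfb2 (chr1:186622792-186705989, minus strand) encodes the third isoform and was the scarcest transcript of the set. Values without radiation were 10.1, 12.5, 14.9 and 17.2 CPM under isotype and 7.49, 11.0, 16.8 and 18.5 CPM under anti-PD-1. Values with 20 Gy were 3.26, 8.93, 10.2 and 11.5 CPM under isotype and 4.62, 5.11, 6.49 and 8.57 CPM under anti-PD-1. The ranges overlapped, with 4 of 8 irradiated allografts below all unirradiated ones. The averaged log2 fold change was -0.87 (SE 0.26, adjusted p = 0.0360, edgeR). This is the least firm of these calls, since it was lost in 7 of 16 fits without 1 tumour: 0 Gy isotype tumour 1 or 4, 0 Gy anti-PD-1 tumour 2 or 4, 20 Gy isotype tumour 4, and 20 Gy anti-PD-1 tumour 1 or 3 (adjusted p up to 0.0778). The call also ended with the first identifier digit (-0.87, adjusted p = 0.0653) or high Xist (-0.95, adjusted p = 0.0623) as a covariate and in 1 fit of all 48 tumours (-0.90, adjusted p = 0.117, edgeR), while the fold change stayed about as large. In the fewer tumours whose number began with 5 it was -0.59 (adjusted p = 0.419).

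The remaining ligand gene, Inhba (chr13:16011851-16031621, plus strand), overlaps 2 annotated genes and encodes the activin A subunit. Unirradiated tumours held 288, 398, 568 and 575.5 CPM in the isotype arm and 248, 269, 326 and 715 CPM in the anti-PD-1 arm. Irradiated tumours held 194, 216, 256 and 324 CPM in the isotype arm and 63.1, 141.8, 165 and 353 CPM in the anti-PD-1 arm. With 5 of 8 irradiated allografts below all unirradiated ones, the averaged log2 difference of -0.96 (SE 0.32) missed the threshold (adjusted p = 0.0591, edgeR). Without 20 Gy anti-PD-1 tumour 4, the highest irradiated allograft, it was -1.26 with an adjusted p of 0.00792. It also passed without 0 Gy isotype tumour 4 (adjusted p = 0.0430) or without 0 Gy anti-PD-1 tumour 1 (0.0439), with RLE scaling (0.0452), with the muscle score as a covariate (0.0480), and by DESeq2 (0.0106). Across allografts log2 Inhba had r = -0.87 with log2 summed macrophage markers and r = 0.87 with log2 summed mesenchymal markers, and the part of either in the difference was not tested.

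Ltbp2, Tgfbr2, Smad7 and Tgfbi were not called in allografts after 20 Gy. Their averaged log2 differences were -0.17 (SE 0.32), 0.16 (SE 0.15), -0.15 (SE 0.18) and 0.39 (SE 0.15). Tgfbi, the secreted matrix protein first found as a TGF-beta-induced gene, came nearest (adjusted p = 0.100), and was called by DESeq2 (0.0454) and by edgeR without 20 Gy anti-PD-1 tumour 2 (0.0278).

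The start regions of the genes that moved in allografts are shown because Tgfb1 and Tgfbr1 were higher while Tgfb2 was lower, together with that of Inhba, which had the largest fold change between the kinds of tumour described further on. RefSeq promoter entries (GRCm38.p6, 250 bases before to 50 bases after the start) were at hand for 7 of 9 members, and not for Tgfb3. Each window is written 5′ to 3′ on the strand of the gene, with matches to the letters searched in capitals. The first motif was the short SMAD element CAGAC, read on both strands. The others, also read on both strands, were the SMAD palindrome GTCTAGAC and, for factors that often act beside SMADs, the AP-1 site TGANTCA. The last was the cAMP response element TGACGTCA, and none of the 4 motifs holds another.
Tgfb1, chr7:25686752-25687051, plus strand: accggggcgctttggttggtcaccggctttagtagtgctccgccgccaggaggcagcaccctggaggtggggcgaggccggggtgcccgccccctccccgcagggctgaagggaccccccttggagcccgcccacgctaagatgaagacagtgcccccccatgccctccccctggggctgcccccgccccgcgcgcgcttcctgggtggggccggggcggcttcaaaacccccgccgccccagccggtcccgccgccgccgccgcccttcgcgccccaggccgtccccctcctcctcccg
Tgfbr1, chr4:47352972-47353271, plus strand: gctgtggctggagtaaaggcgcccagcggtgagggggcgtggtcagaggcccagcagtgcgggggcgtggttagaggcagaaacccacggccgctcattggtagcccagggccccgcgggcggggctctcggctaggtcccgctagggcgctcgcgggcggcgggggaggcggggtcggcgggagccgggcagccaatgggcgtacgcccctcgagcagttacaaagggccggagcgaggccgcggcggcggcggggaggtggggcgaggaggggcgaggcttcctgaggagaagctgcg
Tgfb2, chr1:186705940-186706239, minus strand: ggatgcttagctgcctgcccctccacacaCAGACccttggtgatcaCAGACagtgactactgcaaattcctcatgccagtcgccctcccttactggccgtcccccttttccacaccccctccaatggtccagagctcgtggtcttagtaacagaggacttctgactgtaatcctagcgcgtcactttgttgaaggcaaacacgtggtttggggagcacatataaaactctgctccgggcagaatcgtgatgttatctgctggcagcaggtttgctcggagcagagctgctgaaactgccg
Inhba, chr13:16011601-16011900, plus strand: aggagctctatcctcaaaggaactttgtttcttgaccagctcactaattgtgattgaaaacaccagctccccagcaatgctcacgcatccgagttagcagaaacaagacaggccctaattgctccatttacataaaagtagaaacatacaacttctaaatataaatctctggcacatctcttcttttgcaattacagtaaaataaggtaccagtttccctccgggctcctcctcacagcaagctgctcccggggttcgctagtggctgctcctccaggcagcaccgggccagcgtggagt
The window of Tgfb2 held 2 short SMAD elements and the windows shown for Tgfb1, Tgfbr1 and Inhba none, while 49.6% of 32851 promoter windows hold at least 1. Tgfbr1 has a second entry, not shown, at chr4:47385966-47386265, which held 1 short SMAD element and was 52.0% G or C. The palindrome (0.213% of all windows), the AP-1 site (7.81%) and the cAMP response element (1.79%) were absent from the 4 windows shown. The windows shown for Tgfb1 and Tgfbr1 were 77.0% and 74.7% G or C, that of Tgfb2 54.3% and that of Inhba 47.7%, against a median of 52.7%. A match is a description of letters and no evidence of binding.

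Irradiation was compared in the primary tumours in the same way. Averaged over both antibody arms, Tgfb3 was 2.09-fold lower after 20 Gy and the type II receptor gene Tgfbr2 1.29-fold lower, and 0 members were higher by edgeR, with 2 higher members at an unadjusted p under 0.05 and 1 (Tgfb1) called by DESeq2. Of all 17770 genes tested, 26.3% were called. The median log2 fold change of the members was 0.058, against -0.0004 over all genes. Again 6 of 6 leukocyte markers and 6 of 9 macrophage markers were higher after 20 Gy, as were 7 of 8 muscle markers and 3 of 5 neutrophil markers (5 of 5 by DESeq2, median log2 fold change 2.28). The summed mesenchymal markers ranged from 5418 to 8979 CPM in unirradiated and from 2498 to 8305 CPM in irradiated primary tumours. Their part in the results on members was not tested.

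Tgfb3 was spread widely among primary tumours. Its lowest, median and highest levels without radiation were 48.1, 165 and 517 CPM under isotype and 73.5, 166 and 271 CPM under anti-PD-1. The same 3 values with 20 Gy were 61.3, 92.7 and 203 CPM under isotype and 38.3, 82.8 and 118.1 CPM under anti-PD-1. The groups overlapped, and 3 of 16 irradiated tumours, all given anti-PD-1, were below all 16 unirradiated ones. The log2 fold change was -1.06 (SE 0.28, adjusted p = 0.00482, edgeR), and it passed in all 41 alternative fits tried, of which 32 left out 1 tumour each. The direction was that seen in allografts, and a test of the difference between kinds did not pass (log2 difference of the fold changes -0.33, SE 0.42). By single arms the members called by edgeR were 0 with isotype (14.5% of genes called, 3 members at an unadjusted p under 0.05, 0 by DESeq2) and 0 with anti-PD-1 (7.92% of genes, 2 members, and 1 by DESeq2). Tgfb3 had a log2 difference of -0.94 (SE 0.39, adjusted p = 0.102) with isotype and -1.19 (SE 0.39, adjusted p = 0.0563) with anti-PD-1, and each arm alone passed in some fits without 1 tumour (lowest adjusted p 0.0374, anti-PD-1 arm without 0 Gy anti-PD-1 tumour 4).

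Tgfbr2 (chr9:116084293-116175360, minus strand) encodes the receptor that binds the ligand first. Unirradiated primary tumours held 416, 515 and 793 CPM (lowest, median and highest) in the isotype arm and 346, 547 and 669 CPM in the anti-PD-1 arm. Irradiated ones held 312, 370.3 and 623 CPM in the isotype arm and 243, 426.5 and 469.7 CPM in the anti-PD-1 arm. The groups overlapped, with 4 of 16 irradiated tumours below all unirradiated ones. The log2 fold change was -0.37 (SE 0.11, adjusted p = 0.0156, edgeR). It passed in 40 of 41 alternatives and was lost without the 5 primary tumours above 10000 CPM of muscle markers, where its fold change was as large (-0.37, adjusted p = 0.0585, edgeR). Over the 32 primary tumours, log2 Tgfbr2 had r = 0.53 with log2 summed mesenchymal markers and r = -0.61 with log2 summed neutrophil markers. Log2 Tgfb3 had r = 0.49 with the mesenchymal sum and r = -0.77 with the neutrophil sum. The part of these cells in either gene was not tested.

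Tgfb1 was not called in primary tumours by edgeR. The isotype arm held 91.4, 109.1 and 143.7 CPM (lowest, median and highest) without radiation and 101.4, 116.8 and 150.4 CPM with it. The anti-PD-1 arm held 81.7, 120.9 and 147 CPM without radiation and 110.3, 147 and 172 CPM with it. The averaged log2 difference was 0.21 (SE 0.087, adjusted p = 0.0747, edgeR; 0.0353 by DESeq2), and 6 of 16 irradiated tumours exceeded all unirradiated ones. It passed without 0 Gy isotype tumour 1 or 7, 0 Gy anti-PD-1 tumour 7, or 20 Gy anti-PD-1 tumour 1 or 5 (lowest adjusted p 0.0382, edgeR). With RLE scaling it passed as well (0.24, adjusted p = 0.0478, edgeR). Smad7, the inhibitor that SMAD signalling itself induces, had a difference of 0.34 (SE 0.15, adjusted p = 0.0857), which passed without the muscle-rich tumours (0.53, adjusted p = 0.00921) and without 20 Gy anti-PD-1 tumour 8 (adjusted p = 0.0388).

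The other members were not called in primary tumours. Tgfb2 differed by 0.14 (SE 0.26), Inhba by 0.058 (SE 0.24), Ltbp2 by -0.060 (SE 0.43), Tgfbr1 by -0.15 (SE 0.12) and Tgfbi by 0.28 (SE 0.17) on the log2 scale. For Inhba the group median hid 3 high tumours: with 20 Gy and anti-PD-1, tumours 2, 5 and 6 held 381, 249 and 219 CPM, and the other 5 held 47.1 to 88.3 CPM. The same 3 tumours held the highest Smad7 of that group, 55.6, 65.7 and 65.2 CPM, against 23.2 to 44.6 CPM in the other 5. Their muscle markers summed to 2231, 26.1 and 1444 CPM, below the 10000 CPM of the muscle-rich tumours. Their macrophage markers had the 3 lowest sums of the group, 2697, 856 and 2043 CPM, against 2983 to 5995 CPM in the other 5, and the part of these cells was not tested.

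**Figure D2:**
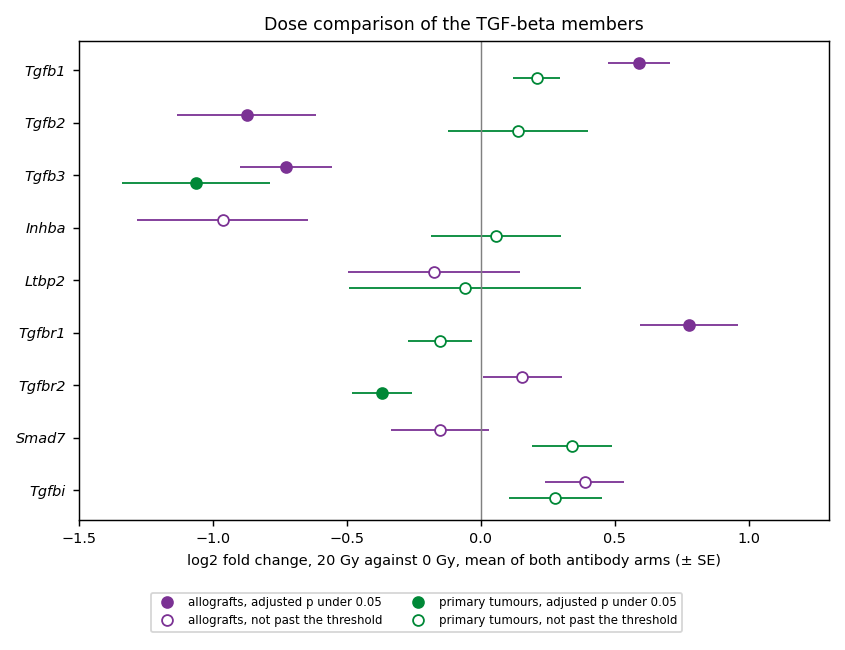
Points are log2 fold changes of 20 Gy against 0 Gy averaged over both antibody arms, with bars of 1 SE, for allografts (purple, 8 against 8) and primary tumours (green, 16 against 16); filled points have an adjusted p under 0.05. Tgfb3 lies left of 0 in both kinds, while Tgfbr1 lies at 0.78 in allografts and -0.15 in primary tumours.

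Because Tgfb1 and Tgfb3 moved apart, their shares of the summed per-length level of the 3 TGF-beta ligands were computed, a measure chosen after their values were seen and given without a test. In unirradiated allografts Tgfb3 made up 52.8% to 67.0% of the sum and Tgfb1 29.3% to 44.2%. After 20 Gy Tgfb1 stood at 48.1% to 64.0% and Tgfb3 at 34.1% to 50.1%, with Tgfb1 the larger in 7 of 8 allografts and Tgfb3 in anti-PD-1 tumour 2, and the 2 dose groups did not overlap for either gene. In primary tumours the median share of Tgfb3 was 63.3% under isotype and 66.9% under anti-PD-1 without radiation, and 52.6% and 41.5% with it. Single primary tumours ranged from 26.7% to 85.4%, so the dose groups overlapped there. Tgfb2 made up at most 5.29% in the other 7 groups, and reached 14.5% in primary 20 Gy anti-PD-1 tumour 8.

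**Figure D3:**
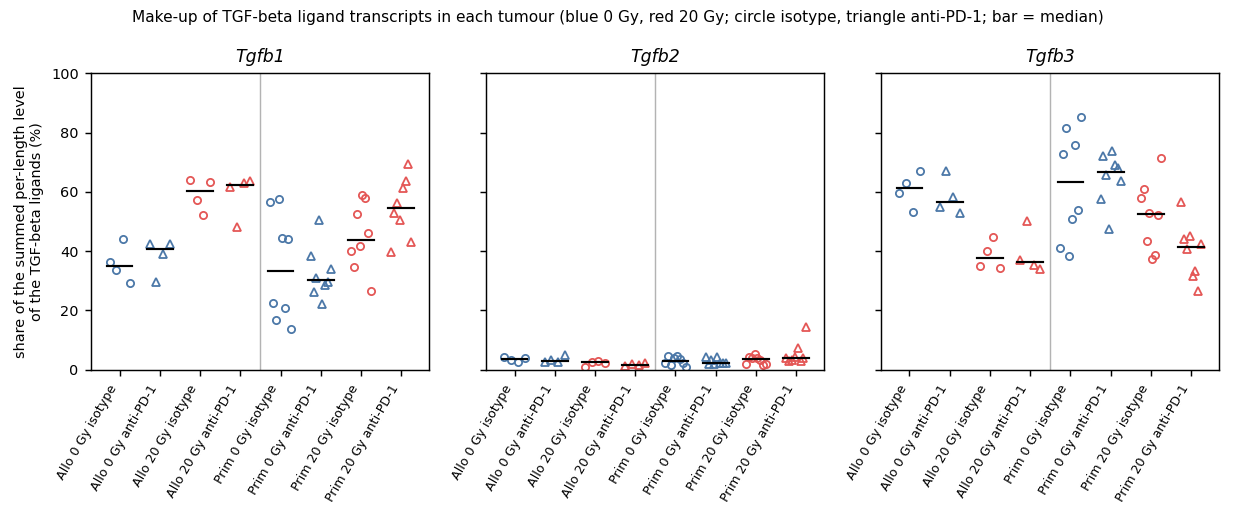
Each point is a tumour and shows the percentage of the summed per-length level of Tgfb1, Tgfb2 and Tgfb3 that comes from the named gene; bars are group medians, blue is 0 Gy and red 20 Gy. In allografts the Tgfb3 share has medians of 61.3% and 56.6% without radiation and 37.6% and 36.3% with it.

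Whether the dose effect differed between the kinds of tumour was tested as an interaction over all 48 tumours. By edgeR 0 members were called in either arm. With isotype 0.00517% of 19327 genes were called (3 members at an unadjusted p under 0.05, 0 by DESeq2), and with anti-PD-1 0% (4 members, 0 by DESeq2). Averaged over arms, a comparison added after the data were seen, 0.0259% of genes were called and 0 members by edgeR (6 at an unadjusted p under 0.05). The nearest was Tgfbr1, whose log2 fold change was 0.93 lower in primary tumours than in allografts (log2 difference -0.93, SE 0.21, adjusted p = 0.0901, edgeR). It was called by DESeq2 (-0.90, adjusted p = 0.0209) and by edgeR without allograft 0 Gy anti-PD-1 tumour 2 (-1.05, adjusted p = 0.0221). Few genes of any kind passed this test.

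Anti-PD-1 was compared with isotype at each dose. No member was called: 0 of 9 in allografts at 0 Gy, at 20 Gy, and in primary tumours at 0 Gy and at 20 Gy. The share of all genes called was 0% in each of these 4 comparisons by edgeR, with 299, 682, 412 and 1443 genes at an unadjusted p under 0.05 in that order, and 0, 0, 3 and 5 genes called by DESeq2, none of them a member. Members at an unadjusted p under 0.05 numbered 2, both in primary tumours at 20 Gy. There the Tgfbr1 level had a lowest value of 53.6 and a median of 80.3 CPM under isotype and of 79.6 and 106.5 CPM under anti-PD-1, a log2 difference of 0.48 (SE 0.17, adjusted p = 0.581, edgeR). Inhba differed by 0.74 (SE 0.35, adjusted p = 0.604), which includes the 3 high tumours named above. The groups overlapped for both genes.

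The combination of 20 Gy and anti-PD-1 was also set against 0 Gy and isotype, in tumours that the dose and antibody comparisons use as well. In allografts 9.66% of genes were called, among them 1 member, Tgfb1 (log2 fold change 0.58, SE 0.16, adjusted p = 0.0342, 4 of 4 tumours above all 4 controls). The call was lost in 6 of 16 fits without 1 tumour: 0 Gy isotype tumour 1, 2 or 4, 20 Gy isotype tumour 2, or 20 Gy anti-PD-1 tumour 1 or 4 (adjusted p up to 0.0849). It also ended with the first identifier digit (0.55, adjusted p = 0.0539) or Xist above 10 CPM (0.54, adjusted p = 0.0886) as a covariate and in the tumours whose number began with 5 (0.54, adjusted p = 0.152, edgeR), with the fold change close to that of all tumours. Tgfb3 was called in both covariate fits (-0.82, adjusted p = 0.0487, and -0.97, adjusted p = 0.0269). In primary tumours 13.8% of genes were called, among them 2 members, Tgfb1 (0.36, SE 0.12, adjusted p = 0.0451, edgeR) and Tgfb3 (-1.39, SE 0.39, adjusted p = 0.0168). Of the 8 tumours given both agents, 5 exceeded all 8 controls for Tgfb1 and 3 lay below all of them for Tgfb3. The Tgfb1 call was lost in 11 of 32 fits without 1 tumour (adjusted p up to 0.106): 0 Gy isotype tumours 2 to 6, 0 Gy anti-PD-1 tumours 1 and 4, and 20 Gy anti-PD-1 tumours 3, 4, 7 and 8. The Tgfb3 call was lost in 1, without 0 Gy isotype tumour 8, which held its highest level of 517 CPM (adjusted p = 0.0701). Without the 5 muscle-rich tumours, a fit on fewer tumours, both calls ended. Tgfb1 then differed by 0.27 (adjusted p = 0.282) and Tgfb3 by -1.61 (adjusted p = 0.0561, edgeR), the latter no smaller than with all tumours, and Smad7 was called (0.73, adjusted p = 0.0290). The Tgfb1 call also ended with no expression filter (0.38, adjusted p = 0.0721) and with the muscle score (0.35, adjusted p = 0.0559) or Xist above 10 CPM (0.34, adjusted p = 0.0715, edgeR) as a covariate, with the fold change about as large. In 1 fit of all 48 tumours Tgfbr2 was called too (-0.42, adjusted p = 0.0456).

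Primary tumours and allografts were compared next, first untreated (0 Gy with isotype) and then averaged over the 4 arms. All 16 allografts come from the single line 402230. The p-values between the kinds therefore cannot tell a trait of allografts from a trait of that line. Untreated primary tumours held 4.12-fold less Inhba and 1.88-fold more Tgfbr2 than allografts, 2 members among the 10.0% of genes called. Averaged over the arms 5 members were called, against 34.8% of 19327 genes: Tgfbr2 and Ltbp2 were higher and Inhba, Tgfb1 and Tgfbi lower in primary tumours. The members' median log2 fold change was -0.083, against 0.0025 over all genes tested. Leukocyte markers were lower in primary tumours for 5 of 6 genes and T cell markers for 5 of 6, while 4 of 8 mesenchymal markers were higher and 2 lower. Untreated, the mesenchymal markers summed to 6412 to 8581 CPM in primary tumours and 3954 to 5129 CPM in allografts, with no overlap. Their part in the differences of the members was not tested.

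Inhba had the largest fold change of the members between the kinds. Untreated allografts held 288 to 575.5 CPM, and the 8 untreated primary tumours 58.7 (lowest), 109.1 (median) and 164 CPM (highest), with no overlap. The untreated log2 fold change was -2.04 (SE 0.26, adjusted p = 0.000801, edgeR), and averaged over arms it was -1.41 (SE 0.20, adjusted p = 5.37e-07). It was kept in 19 of 19 and 23 of 23 alternatives. For the averaged comparison single allografts were left out, but no single primary tumour. Among irradiated tumours the kinds overlapped, with allografts at 63.1 to 353 CPM and primary tumours at 47.1 to 381 CPM, and over all arms 6 of 32 primary tumours were below every allograft.

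Tgfbr2 was also apart, since all 8 untreated primary tumours (416 to 793 CPM) were above all 4 allografts (248, 267, 314 and 340 CPM). The log2 fold change was 0.91 untreated (SE 0.21, adjusted p = 0.0157, edgeR) and 0.55 averaged over arms (SE 0.095, adjusted p = 1.59e-05). The untreated call was lost without allograft tumour 2 or 4 (adjusted p up to 0.0644), and the averaged call was kept in 23 of 23 alternatives. Of these 23, 16 left out 1 allograft each, and none left out a single primary tumour. The first identifier digit was the same for all tumours of a kind when untreated.

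Ltbp2 (chr12:84783212-84876532, minus strand) encodes a microfibril protein that belongs to the latent TGF-beta-binding family without holding the latent ligand itself, and it overlaps 1 annotated gene. Untreated allografts lay within 136.2 to 184 CPM, while untreated primary tumours ran from 16.1 to 698 CPM (median 340.2), so 5 of 8 were above and 2 of 8 below all allografts. Under anti-PD-1 without radiation, allografts ran from 70.2 to 371 CPM and primary tumours from 12.2 to 1077 CPM. Averaged over arms the log2 fold change was 1.04 (SE 0.35, adjusted p = 0.0189, edgeR), and the call ended with the first identifier digit as a covariate (0.92, adjusted p = 0.144) and without the muscle-rich tumours (1.03, adjusted p = 0.0635), with the fold change about as large.

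Tgfb1 was lower (log2 fold change -0.27, SE 0.070, adjusted p = 0.00251, edgeR) and Tgfbi 1.36-fold lower (-0.44, SE 0.13, adjusted p = 0.00748) in primary tumours over the 4 arms. Tgfbi (chr13:56609523-56639562, plus strand) stood at 785, 1051, 1056 and 1272 CPM in untreated allografts and at 406 to 1128 CPM (median 759) in untreated primary tumours, which overlapped. Untreated, neither gene was called (-0.069, adjusted p = 0.802, and -0.39, adjusted p = 0.390). With the first identifier digit as a covariate both averaged calls ended, with Tgfb1 at -0.25 (adjusted p = 0.0660) and Tgfbi at -0.33 (adjusted p = 0.226, edgeR). Tgfb2, Tgfb3, Tgfbr1 and Smad7 were not called between the kinds, with log2 differences of 0.40 (SE 0.21), 0.29 (SE 0.21), -0.10 (SE 0.11) and -0.083 (SE 0.12). Tgfbr1 was called with the first identifier digit as a covariate (-0.41, adjusted p = 0.0249, edgeR).

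Other genes of the pathway were followed as lists. Of 24 other TGF-beta target genes, 14 were higher in primary tumours, 0 lower and 10 not called by edgeR over the 4 arms. By DESeq2 15 were higher and 0 lower, and by edgeR 16 had an unadjusted p under 0.05. The list's median log2 fold change was 0.69, and 34.8% of all genes were called in either direction. The mesenchymal markers given above moved in the same comparison, and their part in it was not tested. The 3 targets with the smallest p were the transgelin gene Tagln (2.93, SE 0.36), Ccn2, which encodes connective tissue growth factor (2.72, SE 0.35), and Snai2 (0.95, SE 0.13), a repressor of epithelial genes. The largest was Cnn1, the smooth muscle calponin, at 3.87 (SE 0.55), chosen for its size. In untreated tumours Tagln was 17.4 to 50.1 CPM in allografts and 40.3, 378 and 484 CPM (lowest, median, highest) in primary tumours, and Cnn1 was 0.405 to 1.57 and 0.774, 11.99 and 59.4 CPM. Without the muscle-rich tumours 9 of the 24 were called higher. So the receptor gene Tgfbr2 and 14 of the 24 targets were called higher in primary tumours over the 4 arms. The ligand genes Inhba and Tgfb1 and the target Tgfbi were called lower.

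**Figure D4:**
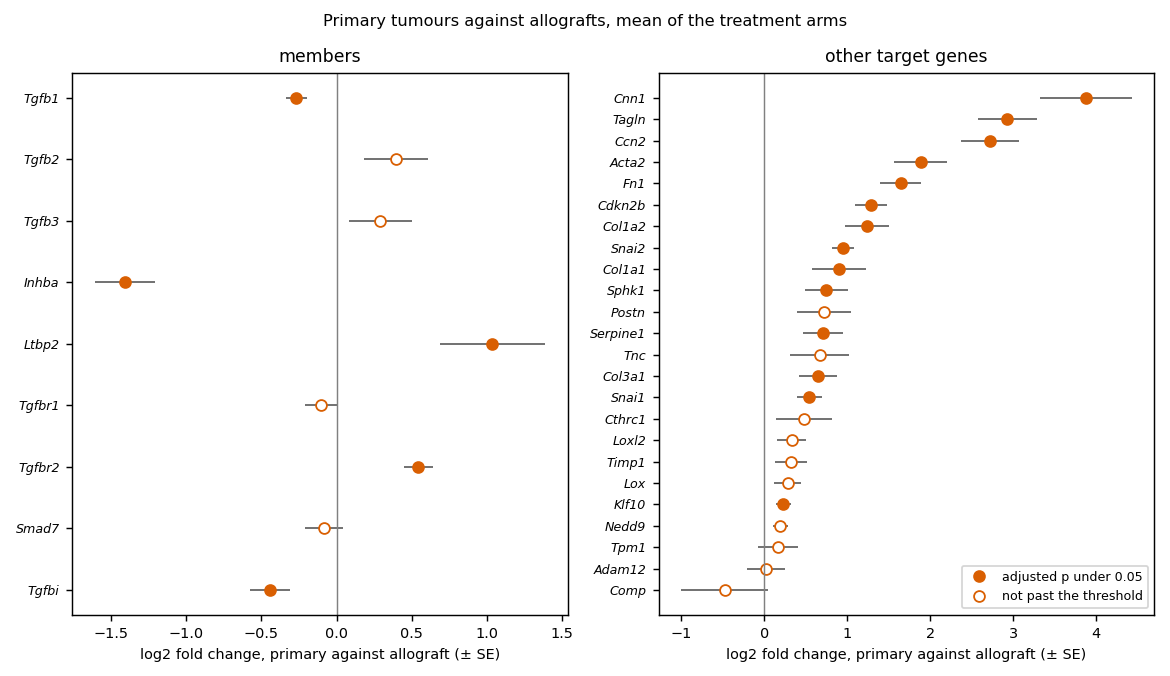
Points are log2 fold changes of primary tumours against allografts averaged over the 4 treatment arms, with bars of 1 SE; filled points have an adjusted p under 0.05. Of the 24 other target genes 14 are filled and right of 0, while the members split into 2 higher and 3 lower.

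The same target list was followed after 20 Gy. In allografts 0 were higher and 6 of 24 lower by edgeR (0 and 7 by DESeq2, 8 at an unadjusted p under 0.05), with a median log2 fold change of -0.26 and 13.7% of all genes called. The 3 with the smallest p were Sphk1 (-0.81, SE 0.16, 8 of 8 below all unirradiated tumours), the tropomyosin gene Tpm1 (-0.75, SE 0.17) and the smooth muscle actin gene Acta2 (-1.01, SE 0.24), and the others, named beyond the rule of 3, were Loxl2, Snai1 and Lox. Acta2 was 84.0 to 136.1 CPM in unirradiated allografts and 19.5 to 85.1 CPM in irradiated ones, with 7 of 8 below all unirradiated ones. Mesenchymal markers summed to 3658 to 6235 CPM in unirradiated and 1912 to 5109 CPM in irradiated allografts. Their median log2 fold change was -0.21, with 0 of 8 called by edgeR and 1 lower by DESeq2. The part of mesenchymal cells in the target values was not tested. With all 48 tumours in 1 fit 1 of the 24 was called lower. In primary tumours 1 was higher, the metalloproteinase inhibitor gene Timp1 (1.09, SE 0.24), and 1 lower, the cell cycle inhibitor gene Cdkn2b (-0.63, SE 0.22), and the list's median was -0.28. These 2 of 24 are a smaller share than the 26.3% called among all genes.

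Of the genes that hold and release latent TGF-beta, Nrros, which anchors latent TGF-beta on myeloid cells, was higher after 20 Gy in allografts (1.17, SE 0.19, adjusted p = 0.000924, 7 of 8 above all unirradiated tumours) and in primary tumours (0.95, SE 0.17, adjusted p = 9.69e-05, 13 of 16 above). In both comparisons 6 of 6 leukocyte and 6 of 9 macrophage markers were higher as well (medians 1.18 and 0.89 in allografts, 0.96 and 0.75 in primary tumours), and their part in the Nrros values was not tested. Nrros was the only 1 of 11 latency and activation genes called in allografts (median -0.035), where 13.7% of all genes were called. In primary tumours 2 of 11 were higher and 3 lower (median -0.13), against 26.3% of all genes. The second higher gene there was Itgb6, the partner of integrin alpha v in releasing TGF-beta (2.20, SE 0.62), at very low levels of 0 to 1.18 CPM unirradiated and 0.031 to 11.6 CPM irradiated. The lower ones were the integrin gene Itgav (-0.70, SE 0.19) and the latent-binding genes Ltbp1 (-0.67, SE 0.23) and Ltbp4 (-0.82, SE 0.31). Between kinds 4 were higher in primary tumours, with Itgav (0.69, SE 0.16), the fibrillin gene Fbn1 (0.95, SE 0.23) and Lrrc32 (0.86, SE 0.22) leading, and 2 lower, the activator thrombospondin gene Thbs1 (-1.13, SE 0.23) and Nrros (-0.35, SE 0.14). The median of the list was 0.35, and 34.8% of all genes were called.

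Among 7 other receptor genes, 1 was called after 20 Gy in each kind, against 13.7% of all genes in allografts and 26.3% in primary tumours. The endothelial type I receptor gene Acvrl1 was higher in irradiated allografts (0.84, SE 0.16, 8 of 8 above all unirradiated ones; list median 0.31), and the activin receptor gene Acvr1b was higher in irradiated primary tumours (0.35, SE 0.13; list median 0.28 over the 6 tested). Of the 7 endothelial markers, 2 were higher in irradiated allografts and 1 in irradiated primary tumours. Between kinds 5 of 7 were called, against 34.8% of all genes. The co-receptor gene Tgfbr3 (0.99, SE 0.17) and Acvr2a (0.37, SE 0.10) were higher in primary tumours. Acvr1c (-2.56, SE 0.31), Acvr2b (-0.79, SE 0.16) and Eng (-0.49, SE 0.19) were lower, and the list's median was -0.13.

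Activin-type ligands and traps were tested for 8 of 9 genes. After 20 Gy 0 were called by edgeR in either kind (1 at an unadjusted p under 0.05 in each, 1 lower in allografts and 1 higher in primary tumours by DESeq2), with medians of -0.19 in allografts and 0.16 in primary tumours, against 13.7% and 26.3% of all genes called. Between kinds 5 of 8 were called, against 34.8% of all genes. Fst, which encodes the activin-binding protein follistatin, was lower in primary tumours (-1.77, SE 0.29), as was Inha (-0.94, SE 0.27). The proteoglycan genes Bgn (1.21, SE 0.16) and Dcn (1.10, SE 0.21) and the follistatin-like gene Fstl3 (0.64, SE 0.14) were higher (median 0.32). Inhba and Fst, a ligand gene and the gene of its trap, were thus both lower in primary tumours, while Fstl3, Bgn and Dcn of the same list were higher.

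Of 13 SMAD genes and regulators, Ldlrad4 and Tgif2, both inhibitors of SMAD signalling, were lower after 20 Gy in both kinds. Ldlrad4 changed by -0.53 (SE 0.094, 8 of 8 below) in allografts and -0.49 (SE 0.16) in primary tumours, and Tgif2 by -0.53 (SE 0.16) and -0.59 (SE 0.16). Pmepa1, a further inhibitor, was lower in primary tumours (-0.56, SE 0.15). The 2 calls of 13 in allografts and 3 of 13 in primary tumours are close to the 13.7% and 26.3% of all genes called, so they say nothing of the list as a whole. The list's median was -0.071 in allografts and -0.17 in primary tumours. Between kinds 7 of 13 were called, against 34.8% of all genes (6 by DESeq2, 5 higher and 1 lower). By edgeR 5 were higher in primary tumours, led by the decoy receptor gene Bambi (1.37, SE 0.17), Ldlrad4 (0.56, SE 0.12) and the ubiquitin ligase gene Smurf2 (0.38, SE 0.084), and 2 lower, Tgif1 (-0.40, SE 0.096) and Skil (-0.22, SE 0.086), with a median of 0.091.

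For each member the 2 genes with the most similar levels were sought among 11713 candidates, by Pearson's r of log2 CPM over all 48 tumours, which share libraries and treatment groups. They were Abr (0.87) and Ttc7 (0.84) for Tgfb1, Klf9 (0.64) and Col6a1 (0.63) for Tgfb2, and Col8a2 (0.76) and Sertad4 (0.75) for Tgfb3. For Inhba they were Cnnm4 (0.83) and Txnrd1 (0.83), and for Ltbp2 Fbln2 (0.75) and Kmt2a (0.73). For the receptors they were Casp9 (0.60) and Ikbkg (0.58) with Tgfbr1, and Ahdc1 (0.84) and Arhgef7 (0.82) with Tgfbr2. Smad7 was most like Igf1r (0.73) and Abcc1 (0.72), and Tgfbi most like Abr (0.65) and Elmo2 (0.63). Abr thus stood first for both Tgfb1 and Tgfbi, whose own levels had r = 0.59 over 48 tumours, 0.74 over the 16 allografts and 0.45 over the 32 primary tumours.

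Within the set, log2 levels of Inhba and Smad7 had r = 0.51 over 48 tumours, 0.82 over allografts and 0.49 over primary tumours. Those of Ltbp2 and Smad7 were similar, with r = 0.51, 0.71 and 0.54 in the same order. Over allografts, log2 summed mesenchymal markers had r = 0.87 with Inhba and 0.84 with Smad7, and their part was not tested. Smad7 lay between 18.4 CPM, in the irradiated allograft with the lowest Inhba (63.1 CPM), and 72.5 CPM, in primary 20 Gy isotype tumour 8. That tumour held the lowest Inhba of its group and the highest Ltbp2 of all, 1384 CPM. Tgfb1 and Tgfbr1 had r = 0.82 in allografts and 0.11 in primary tumours. Tgfb1 and Tgfb3 had r = -0.59 in allografts and -0.17 in primary tumours.

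**Figure D5:**
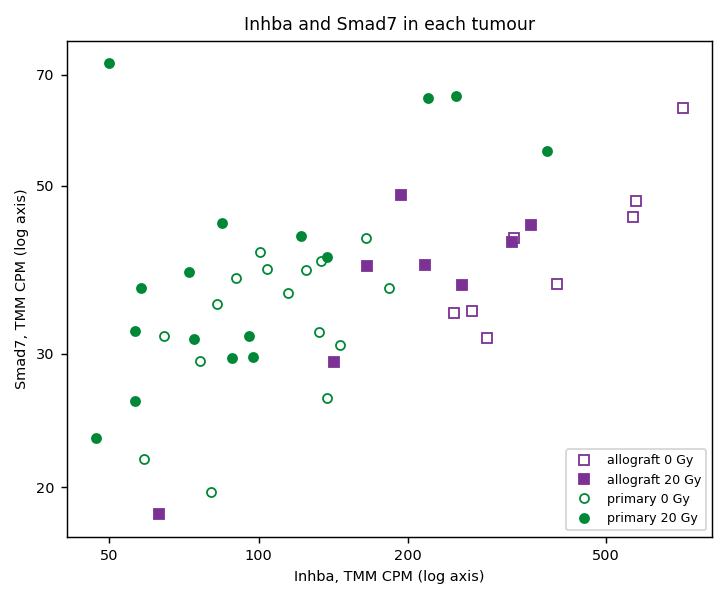
Each point is a tumour, with the Inhba level on the x axis and the Smad7 level on the y axis, both in TMM-scaled CPM on log axes; squares are allografts, circles primary tumours, and filled points were given 20 Gy. The allograft at 63.1 CPM of Inhba has the lowest Smad7, and the primary tumour at 72.5 CPM of Smad7 has little Inhba.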

How the data were processed

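RNA-seq of 48 tumours was analysed from 1 table of gene counts. Per the submitters' processing notes the tools were Trimmomatic 0.36, STAR 5.5.4b and HTSeq with build mm10, and the deposited values are raw counts per Ensembl gene. The strand setting of the counting is not given in the sources used here, so reads of overlapping genes may be split wrongly. Groups came from the labels, each tumour is 1 replicate, and p-values measure the spread between tumours. For allografts this is the spread between tumours of 1 line.

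Counts were filtered with edgeR's filterByExpr, scaled by TMM and tested with edgeR 4.0.16 (quasi-likelihood test, Benjamini-Hochberg adjusted p under 0.05, in R 4.3.3), within a kind of tumour for dose and antibody and over both kinds for their difference. DESeq2 1.42.0 was an alternative. The 9 members and all gene lists were chosen with earlier results of these data known. From each pathway list the 3 higher and 3 lower called genes with the smallest p are named. No pair of libraries agreed within sampling noise. Gene positions are from GENCODE M21 (GRCm38).

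The test was tested on simulated counts with 50 genes changed at each fold. At 1.5-fold it recovered 28% of changed genes in allografts and 64% in primary tumours, and at 2-fold 74% and 88%, so differences near 1.5-fold can go uncalled. Only genes above a minimum mean level were changed. The simulated tests called 149 and 181 genes, against 2430 and 4680 in the data. Fewer calls make the adjusted p threshold stricter, so these shares are not the recovery in the data.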

Additional observations from a re-analysis of the deposited data

Results flagged for a closer look

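Each of the 9 genes was examined in each of the 8 groups of 4 or 8 tumours. In 5 of these 72 sets of values, 1 tumour stood apart from the others by Dixon's test, which chance does for about 1 in 20 sets. Tgfb2 was 55.81 CPM in primary 20 Gy anti-PD-1 replicate 8, with the next tumour at 17.34 CPM. Inhba was 715.0 CPM in allograft 0 Gy anti-PD-1 replicate 4, with the next at 326.2 CPM. Primary 20 Gy isotype replicate 8 stood apart for both Ltbp2, at 1384 CPM against 401.4 CPM in the next tumour, and Smad7, at 72.52 CPM against 42.95 CPM. Tgfbr2 was 242.6 CPM in primary 20 Gy anti-PD-1 replicate 5, below the next tumour at 384.2 CPM.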

How the results depend on the processing

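No paired analysis was possible because the labels give no replicate numbers shared between groups. No call of a member changed direction under any alternative tried. The number of members called after 20 Gy in isotype allografts was 1, and 0 with the first identifier digit or Xist above 10 CPM as a covariate or with the most common digit only (1 irradiated isotype tumour), 2 by DESeq2, and 0 to 2 without single tumours. For anti-PD-1 allografts it was 0, and 1 with the Xist covariate, 3 by DESeq2 and 0 to 1 without single tumours. Averaged over arms in allografts it was 4, and 2 with the Xist covariate or all 48 tumours in 1 fit, 0 with the most common digit only, 6 by DESeq2, 5 with RLE scaling or the muscle score as a covariate, and 3 to 5 without single tumours. For the combined treatment in allografts it was 1, and 2 without tumours above 10000 CPM of muscle markers, 0 with the most common digit only, 4 by DESeq2 and 0 to 2 without single tumours; with the digit or Xist covariate the count stayed at 1, with Tgfb3 called and Tgfb1 not. In primary isotype tumours it was 0, and 1 with the digit or Xist covariate or the most common digit only, 2 with all 48 tumours in 1 fit and 0 to 1 without single tumours. In primary anti-PD-1 tumours it was 0, and 1 with all 48 tumours in 1 fit or by DESeq2, and 0 to 1 without single tumours. Averaged over arms in primary tumours it was 2, and 3 by DESeq2 or with RLE scaling, each adding Tgfb1. Without the muscle-rich tumours Smad7 was called there and Tgfbr2 was not. For the combined treatment in primary tumours it was 2, and 1 with no expression filter, with the muscle score or Xist as a covariate or without the muscle-rich tumours, where that 1 was Smad7 and both Tgfb1 and Tgfb3 were lost, 3 with all 48 tumours in 1 fit, which added Tgfbr2 (-0.42, adjusted p = 0.0456, edgeR), and 1 to 2 without single tumours. Between untreated kinds it was 2, and 1 to 2 without single tumours. Between kinds over the 4 arms it was 5, and 3 with the digit covariate, which also brought in Tgfbr1 (-0.41, adjusted p = 0.0249, edgeR). For the difference in dose effect averaged over arms it was 0, and 1 by DESeq2 and 0 to 1 without single allografts. In the comparisons over both kinds and all arms, no single primary tumour was left out. Of the other target genes, 14 were higher in primary tumours, and 9 without the muscle-rich tumours; 6 were lower in irradiated allografts, and 1 with all 48 tumours in 1 fit and 0 with the most common digit only. Fits on the most common digit or without tumours use fewer samples; for the other settings the cause was not tested. Tgfb2, at the lowest counts, has the largest counting error of the members, while the spread between tumours was larger for Ltbp2.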
